A study of Canis lupus familiaris with 4 samples.

Results

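CDKN1A and 8 further target genes of the transcription factor p53 (MDM2, GADD45A, BAX, SESN1, BBC3, CCNG1, ZMAT3 and PHLDA3) were followed in canine mammary cancer cells grown with or without macrophages. A gene was matched to an array probe when the scanner files gave its symbol as the gene name or in brackets in the description. Of the 9 genes, 7 had a probe, with 15 probes in all among the 43603 probes and 14045 gene symbols of the array. No probe matched BBC3 or PHLDA3 in this way, so neither gene has a value here. The genes were chosen with earlier results of these data known, from the same contrasts between cultures and between lines, so their values in those contrasts are descriptions and carry no test.

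The cells came from 2 established dog mammary cancer lines, P114 and CMT-U27, and were sorted for surface Sca1, EpCAM and CD44 to enrich stem-like cells, which made up a very small share of each line. They were collected on day 3 of culture either with tumor associated macrophages (co-culture) or alone (single culture), and no other treatment is named for either group. Each of 4 two-colour arrays held both cultures of 1 line, with the dyes exchanged between the 2 arrays of a line, so every group had n = 2 channels. Each line is a single model, the labels do not say whether the macrophages were removed before RNA was isolated, and they leave unstated whether RNA was extracted separately for the 2 arrays of a line. P-values therefore measure the spread between these arrays, which may be technical. Ratios below are co-culture over single culture on the log2 scale, and levels are normalized log2 intensities of a channel.

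The protein p53 is a transcription factor that is stabilised when DNA is damaged or when cells are otherwise stressed, and it then switches on a set of genes. CDKN1A encodes p21, which binds cyclin-dependent kinases and holds the cell cycle, and MDM2 encodes the ubiquitin ligase that marks p53 for destruction and so closes a feedback loop. Other targets act in DNA damage responses, in mitochondrial cell death or in metabolism, and many of them, CDKN1A among them, are also switched on without p53.

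Sequences are shown for the 3 CDKN1A probes, because they gave different results, and for the MDM2 probe. Each line gives 30 of the 60 bases of the probe, 5′ to 3′, as the scanner files list it, and capitals mark the letters AATAAA, the hexamer that signals polyadenylation.
CDKN1A A_11_P0000020666: cctcctgcctcactcccctgagcggcctga
CDKN1A A_11_P150703: ggtagacgctgtggatagggcatgctacat
CDKN1A A_11_P122016: cagcaggtgctcAATAAAtatttcttagta
MDM2 A_11_P0000019824: aaaaggaataagccctgtccagtatgtaga

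The CDKN1A probes lie on the plus strand of chromosome 12 of CanFam3.1, at chr12:5752055-5752114, chr12:5754761-5754820 and chr12:5755048-5755107, and the files give all of them the transcript ENSCAFT00000044360. The start of the first lies 2706 bases before that of the second, and the second 287 bases before the third. The first is rich in G and C, at 68.3% against a median of 43.3% over all probes, which placed it at percentile 98.9. The MDM2 probe lies at chr10:10962430-10962489, also on the plus strand. The letters AATAAA were searched on the strand of the probe alone, and stood in 2 of the 15 probes, the third of CDKN1A and A_11_P118206 of SESN1, and in 8.67% of all probes. Exon and UTR boundaries of this build were not used here.

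The share of probe spots well above background was 89.4% and 91.7% in the channels of P114 replicate 1 and between 57.9% and 65.7% in the other 6 channels, and 0 spots were saturated. Of the 15 probes, 12 were well above background in all 8 channels, and the other 3 belong to SESN1. The P114 arrays were scanned at 1 time and the CMT-U27 arrays at another, so line and scan cannot be told apart, and all 4 arrays lay on 1 slide. Of 12 epithelial markers on the array, 11 or 12 were well above background in every channel, and both sort markers on it, EPCAM and CD44, were so in all 8. Of 20 macrophage markers, 19 were well above background in both channels of P114 replicate 1, 4 in both channels of P114 replicate 2 and 2 to 4 in the channels of CMT-U27. Their summed intensity was 3411 to 4228 in P114 co-culture, 3681 to 4335 in P114 single culture, 3342 to 3499 in CMT-U27 co-culture and 3238 to 3427 in CMT-U27 single culture. In these bulk samples fewer cells of a type and less RNA per cell cannot be told apart.

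In single culture all 7 measured genes were higher in P114 than in CMT-U27 at their brightest probe, from 0.57 on the log2 scale for GADD45A to 4.24 for CDKN1A, with a median of 0.73 against -0.04 over all 10781 genes tested. Both P114 channels lay above both CMT-U27 channels at 13 of the 15 probes, where 33.8% of all tested probes did so, and at 0 of 15 below them, where 37.1% did. These contrasts chose the genes, so nothing is read from the counts.

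CDKN1A, the cell-cycle inhibitor, differed most. At A_11_P122016, its brightest probe, the levels were 14.91 and 14.85 in P114 single culture, 14.39 and 14.59 in P114 co-culture, 10.55 and 10.73 in CMT-U27 single culture and 10.81 and 10.84 in CMT-U27 co-culture. The means ran from P114 single culture (14.88 ± 0.04, SD, n = 2) through P114 co-culture (14.49 ± 0.14) and CMT-U27 co-culture (10.82 ± 0.03) to CMT-U27 single culture (10.64 ± 0.13), and the 2 channels of each group did not overlap those of its neighbours in that order. The step between the lines was far larger than the steps between cultures. In single culture it was 4.24 ± 0.14 (SE of the channel fit), or 18.9-fold.

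The second CDKN1A probe, A_11_P150703, gave the same picture with a wider spread. It read 13.92 and 13.99 in P114 single culture, 13.73 and 13.05 in P114 co-culture, 10.02 and 10.13 in CMT-U27 single culture and 10.30 and 10.31 in CMT-U27 co-culture. The single-culture difference was 3.88 ± 0.53, or 14.7-fold. The first probe, A_11_P0000020666, did not separate the lines. Its levels were 11.63 and 11.28 in P114 single culture, 11.87 and 11.06 in P114 co-culture, 11.29 and 11.75 in CMT-U27 single culture and 11.44 and 11.78 in CMT-U27 co-culture. The channels of all groups overlapped there, and the difference between lines in single culture was -0.06 ± 0.42. The 3 probes of this gene thus disagree, and the probe that stands apart is the GC-rich one printed first. Whether it measures the same RNA was not tested.

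**Figure D1:**
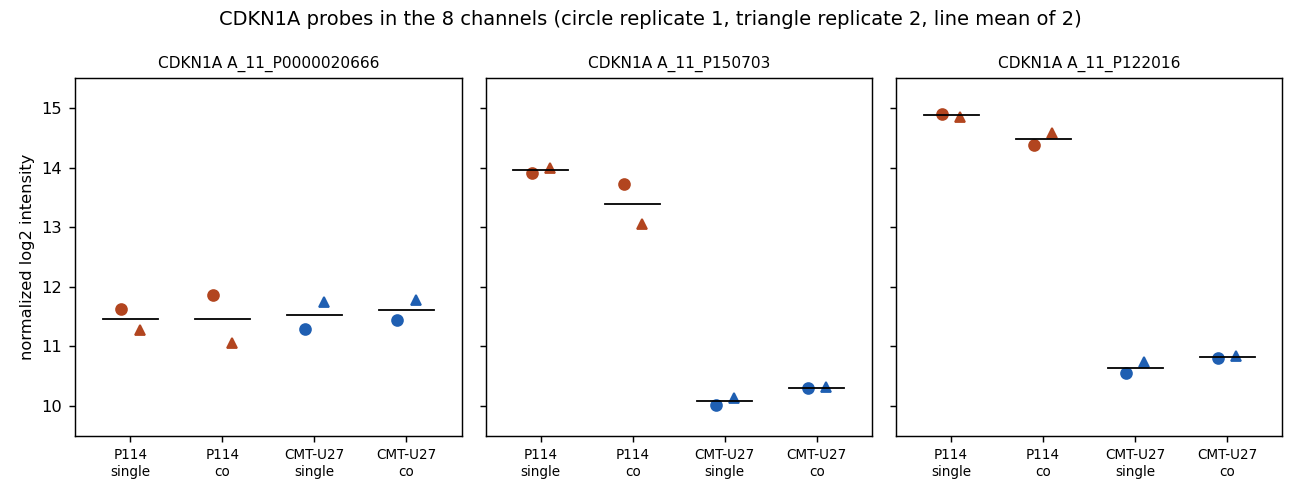
Normalized log2 intensity (y axis) of the 3 CDKN1A probes in P114 and CMT-U27, single culture and co-culture (x axis), with a circle for replicate 1, a triangle for replicate 2 and a line at the mean of 2. At A_11_P150703 and A_11_P122016 every P114 point lies above 13 and every CMT-U27 point below 11, while at A_11_P0000020666 the lines overlap.

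GADD45A, a small stress-induced protein that acts in cell-cycle arrest and DNA repair, has 1 probe, on the minus strand at chr6:77393192-77393251. Its levels were 10.16 and 10.10 in P114 single culture, 9.80 and 10.24 in P114 co-culture, 9.64 and 9.49 in CMT-U27 single culture and 9.53 and 9.38 in CMT-U27 co-culture. All P114 channels were above all CMT-U27 channels, the cultures overlapped in both lines, and the single-culture difference was 0.57 ± 0.33, or 1.48-fold.

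MDM2, the ligase that limits p53, was the next highest after CDKN1A by its difference between lines. Its levels were 10.01 and 9.97 in P114 single culture, 9.43 and 9.62 in P114 co-culture, 8.32 and 8.31 in CMT-U27 single culture and 8.35 and 8.26 in CMT-U27 co-culture. P114 single culture lay above P114 co-culture, and both lay above CMT-U27, whose cultures overlapped. In single culture the difference was 1.67 ± 0.15, or 3.19-fold.

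CCNG1 encodes cyclin G1, a p53 target that recruits a phosphatase to MDM2. Its brightest probe, A_11_P116866 (chr4:47800925-47800984, minus strand), read 14.38 and 14.36 in P114 single culture, 13.92 and 14.19 in P114 co-culture, 13.16 and 13.60 in CMT-U27 single culture and 13.46 and 13.23 in CMT-U27 co-culture. The order was P114 single culture, then P114 co-culture, then CMT-U27 with its cultures overlapping. The 3 CCNG1 probes agreed in direction, with single-culture differences of 0.99 ± 0.26 at A_11_P116866, 1.16 ± 0.37 at A_11_P104806 and 1.25 ± 0.29 at A_11_P0000024313, or 1.99-fold to 2.37-fold.

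BAX, the protein that opens the outer mitochondrial membrane in cell death, has 2 probes on the minus strand of chromosome 1. At A_11_P0000019737 (chr1:107423243-107423302) the levels were 8.45 and 8.67 in P114 single culture, 8.27 and 8.72 in P114 co-culture, 8 and 7.95 in CMT-U27 single culture and 7.93 and 8.09 in CMT-U27 co-culture. At A_11_P053236 (chr1:107424982-107425041) they were 8.23 and 8.30 in P114 single culture, 8.20 and 8.26 in P114 co-culture, 7.56 and 7.59 in CMT-U27 single culture and 7.56 and 7.58 in CMT-U27 co-culture. All P114 channels lay above all CMT-U27 channels at both probes, and the cultures of a line overlapped. The single-culture differences were 0.59 ± 0.31 and 0.69 ± 0.12.

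SESN1 encodes sestrin 1, a stress-induced protein that restrains growth signalling through mTORC1, and was dim. Its brightest probe, A_11_P118206 (chr12:65959161-65959220, minus strand), read 8.22 and 8.21 in P114 single culture, 7.77 and 8.07 in P114 co-culture, 7.54 and 7.44 in CMT-U27 single culture and 7.51 and 7.43 in CMT-U27 co-culture. P114 was above CMT-U27 in every channel, by 0.73 ± 0.23 in single culture. The other 3 SESN1 probes, A_11_P192783, A_11_P0000026514 and A_11_P165203, were well above background in 4 or 5 of the 8 channels. They gave single-culture differences of -0.04, 0.21 and 0.11. These values depended on the processing, and their highest values under the other settings were 0.93, 1.82 and 1.8. A_11_P0000026514 and A_11_P165203 were not well above background in any CMT-U27 channel. Their measured single-culture differences of 0.21 ± 0.16 and 0.11 ± 0.13 equal 1.15-fold and 1.08-fold higher levels in P114. These folds use the measured CMT-U27 level and are not lower bounds.

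ZMAT3 encodes an RNA-binding zinc finger protein that is a direct target of p53. Its 1 probe (chr34:12535085-12535144, minus strand) read 7.91 and 7.65 in P114 single culture, 7.80 and 7.34 in P114 co-culture, 7.2 and 7.12 in CMT-U27 single culture and 7.19 and 7.08 in CMT-U27 co-culture. All P114 channels lay above all CMT-U27 channels, the cultures overlapped in both lines, and the single-culture difference was 0.62 ± 0.21.

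The size of the difference at dim probes depended on the processing. From the scanner software's processed signals, with another background correction and another scaling, the single-culture differences were 2.28 for ZMAT3, 1.64 for A_11_P118206 of SESN1 and 1.48 for A_11_P053236 of BAX, while A_11_P122016 of CDKN1A gave 4.31 and the median of all tested probes was 0.13. The direction was the same for all 7 genes at their brightest probe under every scaling tried.

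**Figure D2:**
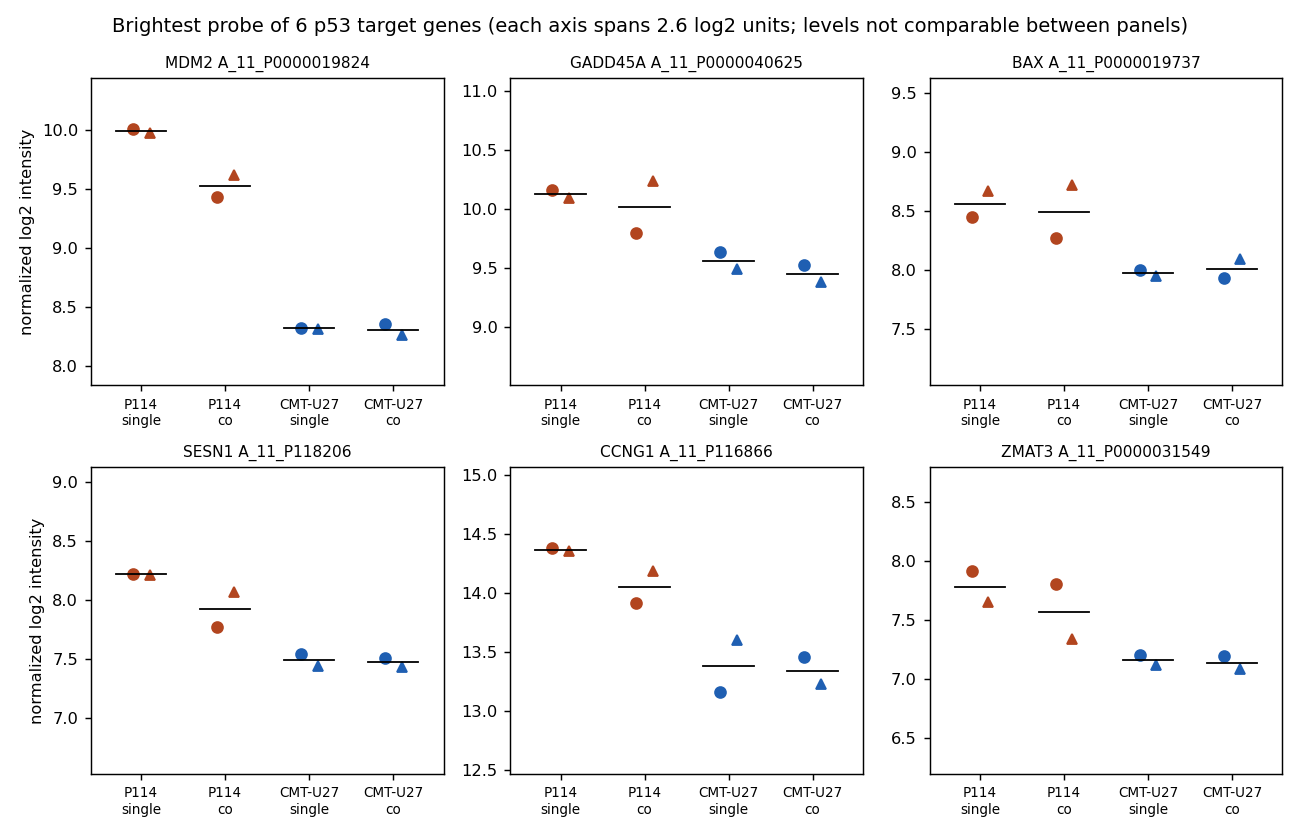
Normalized log2 intensity (y axis, each spanning 2.6 units) of the brightest probe of MDM2, GADD45A, BAX, SESN1, CCNG1 and ZMAT3 by line and culture (x axis), with a circle for replicate 1, a triangle for replicate 2 and a line at the mean of 2. All P114 points lie above all CMT-U27 points in each panel, and the gap is widest for MDM2, at 1.67 in single culture.

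Within co-culture the difference between the lines is the single-culture difference plus the co-culture ratio of P114 minus that of CMT-U27, so it is fixed by the contrasts that chose the genes and is likewise given with no test. CDKN1A was at 3.67 ± 0.14 at A_11_P122016 (SE of the channel fit; 12.7-fold higher in P114), at 3.08 ± 0.53 at A_11_P150703 (8.46-fold) and at -0.14 ± 0.42 at A_11_P0000020666. MDM2 was at 1.22 ± 0.15 (2.33-fold). At A_11_P122016, A_11_P150703 and MDM2 the value was smaller than in single culture. Over all 28692 probes limma's channel fit called 15.3% in co-culture, 6.72% higher and 8.58% lower in P114, and no call of the 15 probes is drawn from it.

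The other genes lay closer together. Their co-culture differences at the brightest probe were 0.57 ± 0.33 for GADD45A, 0.71 ± 0.26 for CCNG1, 0.49 ± 0.31 for BAX, 0.45 ± 0.23 for SESN1 and 0.44 ± 0.21 for ZMAT3, and the dimmer BAX probe gave 0.66 ± 0.12. Both P114 channels were above both CMT-U27 channels at 12 of the 15 probes, against 30.1% of all tested probes, and below them at 0 of 15, against 36.1%, and nothing is read from these counts.

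**Figure D3:**
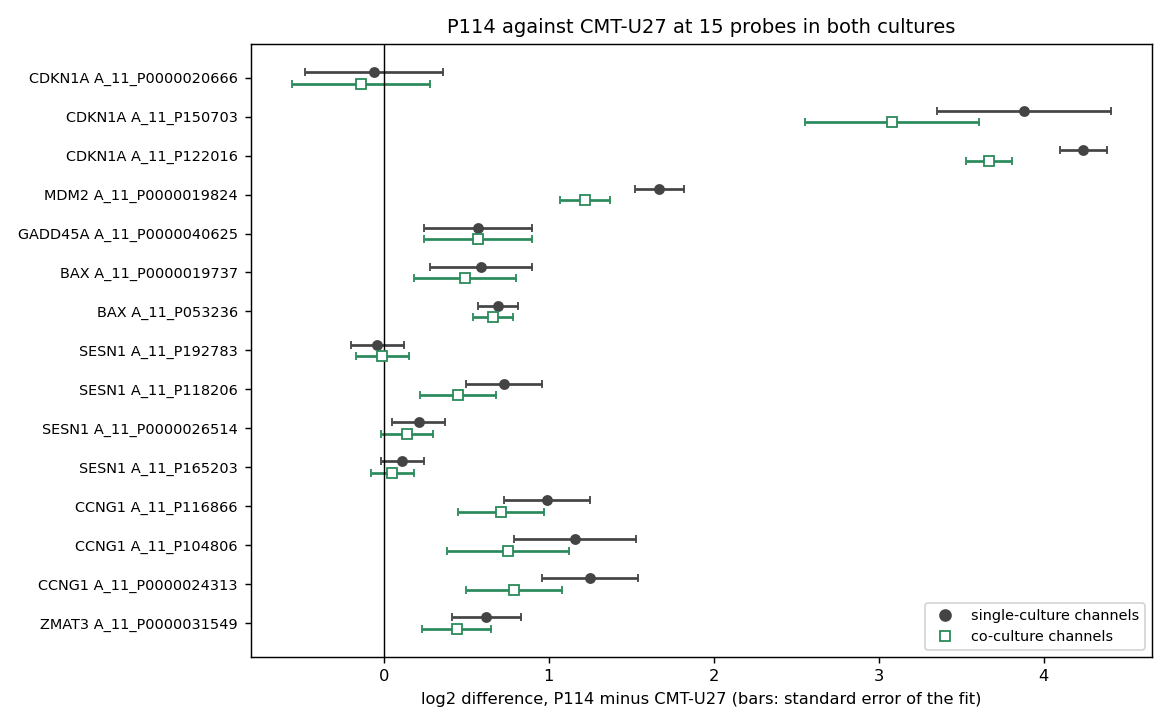
Difference in log2 level between P114 and CMT-U27 (x axis, P114 minus CMT-U27) at the 15 probes (y axis), from the single-culture channels (filled circles) and the co-culture channels (open squares), with the standard error of the fit as bars. The probes A_11_P150703 and A_11_P122016 of CDKN1A lie between 3.08 and 4.24, MDM2 at 1.67 and 1.22, and all other probes at 1.25 or less.

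Co-culture with macrophages was then compared with single culture within each line. In P114 all 7 genes had a mean ratio below 0 at the brightest probe, from -0.46 for MDM2 to -0.06 for BAX, with a median of -0.30 against 0.01 over all genes tested, but with median centring in place of loess 4 of the 7 lay above 0, with a median of 0.07 where the median of all tested probes was 0.16. Relative to that shift 6 of the 7 were still lower. The ratio was below 0 on both P114 arrays at 11 of the 15 probes, against 18.2% of all tested probes, and above 0 on both at 0 of 15, against 25.1%. These ratios belong to the contrasts that chose the genes, so nothing is read from these counts. Over all 28692 probes limma called 0 (0%) in P114, where 1758 had an unadjusted p under 0.05, and over tested probes the ratios of the 2 P114 arrays correlated at -0.149.

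For CDKN1A in P114 the ratios of replicate 1 and replicate 2 were -0.52 and -0.26 at A_11_P122016, -0.19 and -0.94 at A_11_P150703, and 0.24 and -0.21 at A_11_P0000020666. At the first of these the mean was -0.39 ± 0.18 (SD, n = 2), a 1.31-fold lower level in co-culture, and at the second it was -0.57 ± 0.53. The third probe had no common direction. With median centring the means were 0.07, -0.13 and 0.43.

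MDM2 had ratios of -0.57 and -0.35, a mean of -0.46 ± 0.16, which was the lowest brightest-probe value of the 7 genes. The CCNG1 probes read -0.46 and -0.16, -0.49 and -0.11, and -0.48 and -0.23, with means of -0.31, -0.30 and -0.35. Replicate 1 was the lower array at MDM2 and at all 3 CCNG1 probes. SESN1 at A_11_P118206 read -0.45 and -0.14, and ZMAT3 read -0.11 and -0.31.

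At GADD45A and the brighter BAX probe the P114 arrays lay on opposite sides of 0. GADD45A read -0.36 and 0.14, the brighter BAX probe -0.18 and 0.06, and the other BAX probe -0.02 and -0.04. The mean ratios of GADD45A (-0.11) and of the brighter BAX probe (-0.06) were smaller than the SD between the arrays (0.35 and 0.17). Without P114 replicate 1 the 7 genes had 2 ratios above 0 and 5 below, with a median of -0.16, and without P114 replicate 2 they had 7 below, with a median of -0.45.

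In CMT-U27 the same genes lay near 0. The median ratio at the brightest probe was -0.02 against 0.03 over all genes, with 2 genes above 0 and 5 below. Both arrays were above 0 at 5 of the 15 probes, against 37.4% of all tested probes, and below 0 at 5 of 15, against 13.2%. The adjusted p of limma called 0 of 28692 probes (0%), where 928 had an unadjusted p under 0.05. Under median centring the median of all tested probes was itself 0.68, 4 of the 7 genes were above that and 3 below, and CDKN1A at A_11_P122016 read 1.47.

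CDKN1A in CMT-U27 was slightly higher in co-culture on both arrays at each of its probes. The ratios were 0.26 and 0.11 at A_11_P122016, 0.28 and 0.18 at A_11_P150703 and 0.15 and 0.03 at A_11_P0000020666, so the mean at the brightest was 0.19 ± 0.10 (1.14-fold). MDM2 read 0.03 and -0.05. GADD45A read -0.11 on both arrays, and BAX at its brighter probe read -0.06 and 0.14. The brightest CCNG1 probe read 0.30 and -0.37, the widest gap between arrays of any of the 15 probes in this line, while the other CCNG1 probes read 0.02 and 0.19, and 0.04 and 0.17. At SESN1 and ZMAT3 no CMT-U27 ratio exceeded 0.04 in size. These probes were dim, and their CMT-U27 means moved with the processing. Under the other settings they ran from -0.8 to -0.04 at A_11_P0000026514 and from -0.33 to 0.33 at A_11_P165203 of SESN1. For ZMAT3 they ran from -0.22 to -0.03.

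The response of CMT-U27 minus that of P114 was 0.57 for CDKN1A at A_11_P122016, 0.45 for MDM2, 0.28 for CCNG1 and SESN1, 0.18 for ZMAT3, 0.10 for BAX and 0.00 for GADD45A at the brightest probes. The same fit called 0 of 28692 probes (0%) for this difference, where 821 had an unadjusted p under 0.05. Without background correction 1 probe passed, and with median centring 12448 did, 12339 of them higher in CMT-U27, where the median of all tested probes was 0.51. Of the 20 macrophage markers 5 were tested. On the P114 arrays the ratios were -0.01 and -0.02 for CD163, 0.15 and -0.07 for CD14, 0.19 and -0.12 for CD68, -0.10 and -0.34 for LAPTM5 and -0.34 and -0.35 for CD86. On the CMT-U27 arrays they were -0.02 and 0.01 for CD163, 0.07 and 0.02 for CD14, 0.16 and 0.09 for CD68, -0.04 and 0.01 for LAPTM5 and 0.02 and 0 for CD86. LAPTM5 and CD86 were not well above background in any CMT-U27 channel, so their ratios there were taken at background. The CD163 probe was well above background in only 4 of the 8 channels. The part of macrophage RNA in the ratios was not tested.

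**Figure D4:**
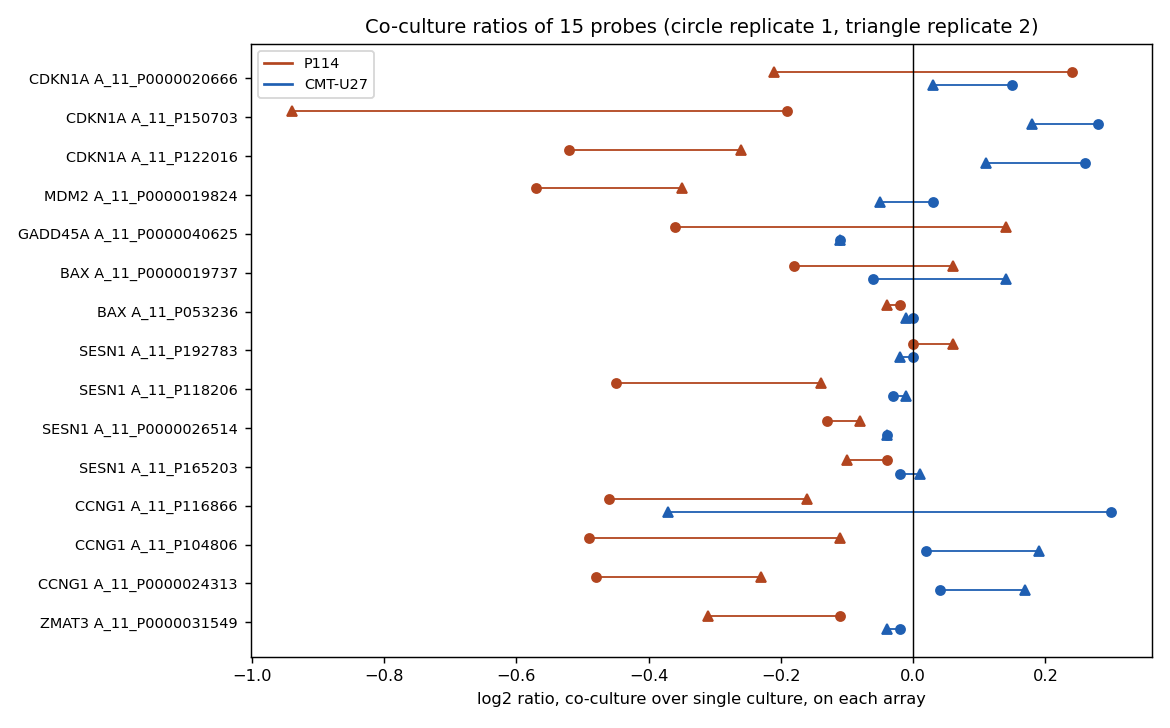
Log2 ratio of co-culture over single culture (x axis) on each array for the 15 probes (y axis), P114 in red and CMT-U27 in blue, with a circle for replicate 1, a triangle for replicate 2 and a line joining them. The P114 pairs lie below 0 at 11 probes, lowest at A_11_P150703 of CDKN1A (-0.94 on replicate 2), and most CMT-U27 points lie within 0.3 of 0.

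Further genes around p53 were taken from lists written with earlier results of these data known, so their counts and calls are descriptions. Each gene was read at its brightest probe. Other p53 targets had no common direction between the lines. Of 42 listed, 28 were tested, and in single culture 14 were higher and 14 lower in P114, with a median of -0.01, where limma (Benjamini-Hochberg adjusted p under 0.05 over 28692 probes) called 3 higher and 4 lower and where 15.2% of all probes passed (7.12% higher, 8.03% lower). Those called lower include PERP, a p53 target of cell junctions and cell death, at -2.15 ± 0.12, PMAIP1, which encodes the death-promoting protein NOXA, at -1.10 ± 0.17, and DDB2, a DNA damage sensor, at -1.03 ± 0.20. Those called higher include the receptor gene EPHA2 at 1.03 ± 0.21 and the nuclease gene AEN at 0.89 ± 0.19, while SFN, the 14-3-3 sigma gene, was at 1.36 ± 0.72 and did not pass. In P114 co-culture the 28 targets had 16 ratios above 0 and 12 below, with a median of 0.03, but 10 above and 18 below without P114 replicate 1. In CMT-U27 they had 23 above and 5 below (82.1% above), with a median of 0.06, and 71.8% of all genes tested were above 0 there, with a median of 0.03.

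The genes that act on p53 had no common direction between the lines. MDM4, the partner of MDM2 that also holds p53 in check, was at 0.89 ± 0.41 in single culture, and TP73, a transcription factor gene, at -0.14 ± 0.36. The other TP73 probe gave 0.12. Of 11 tested regulators 6 were higher and 5 lower in P114 single culture, with a median of 0.05 and values from -0.69 to 0.89, none of which passed.

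Among relatives of the 7 genes, SESN3, another sestrin, was called lower in P114 at -1.52 ± 0.13, whereas CDKN1B, which encodes the related inhibitor p27, was at 0.14 ± 0.15 and GADD45B at -0.62 ± 0.16. The 4 tested CDKN1B probes ranged from -0.35 to 0.14. Of the BCL2 family, to which BAX belongs, 3 of 8 tested genes were higher and 5 lower. MCL1 and BCL2, which both oppose BAX, were at -2.24 ± 0.14 and -1.95 ± 0.16, and BCL2A1, which also opposes cell death, was at 1.84 ± 0.24.

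The cyclins and kinases that p21 acts on had no common direction between the lines, with 6 of 12 higher and 6 lower in P114 single culture and a median of 0.04. CCND2, a D-type cyclin, was at 2.67 ± 0.24, and CCNE2, an E-type cyclin, at -1.58 ± 0.21. PCNA, the replication clamp that p21 also binds, was at 0.48 ± 0.44, and its other probe gave -0.22. Of 17 tested cell-cycle genes that p53 and p21 are known to lower through the DREAM complex, 16 were lower and 1 higher in P114 single culture, with a median of -0.45, and limma called 7, all of them lower. Of all 10781 genes tested 46.3% were higher, and 1049 were called lower and 851 higher. This list too was written with earlier results of these data known, so nothing is read from its counts. FOXM1, a transcription factor of late cell-cycle genes, was at -1.36 ± 0.33, and BUB1, a spindle checkpoint kinase, at -1.20 ± 0.16.

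In P114 all 17 of these cell-cycle genes had a mean co-culture ratio above 0, with a median of 0.23 against 0.01 over all genes, and 15 to 17 of them did so under the other normalizations and background correction tried. With median centring the median of all tested probes was itself 0.16. In the main fit the largest mean ratio was 0.45 for PLK1, a mitotic kinase, with 0.61 and 0.30 on the arrays. Both arrays were above 0 for 12 of the 17, where they were so for 2552 of all 10781 genes. For the rest of the 17 the arrays lay on opposite sides of 0. In CMT-U27 14 were above 0 and 3 below (82.4% above, against 71.8% of all genes), with a median of 0.09 against 0.03. None of these ratios passed the test over all probes, and nothing is read from these counts.

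**Figure D5:**
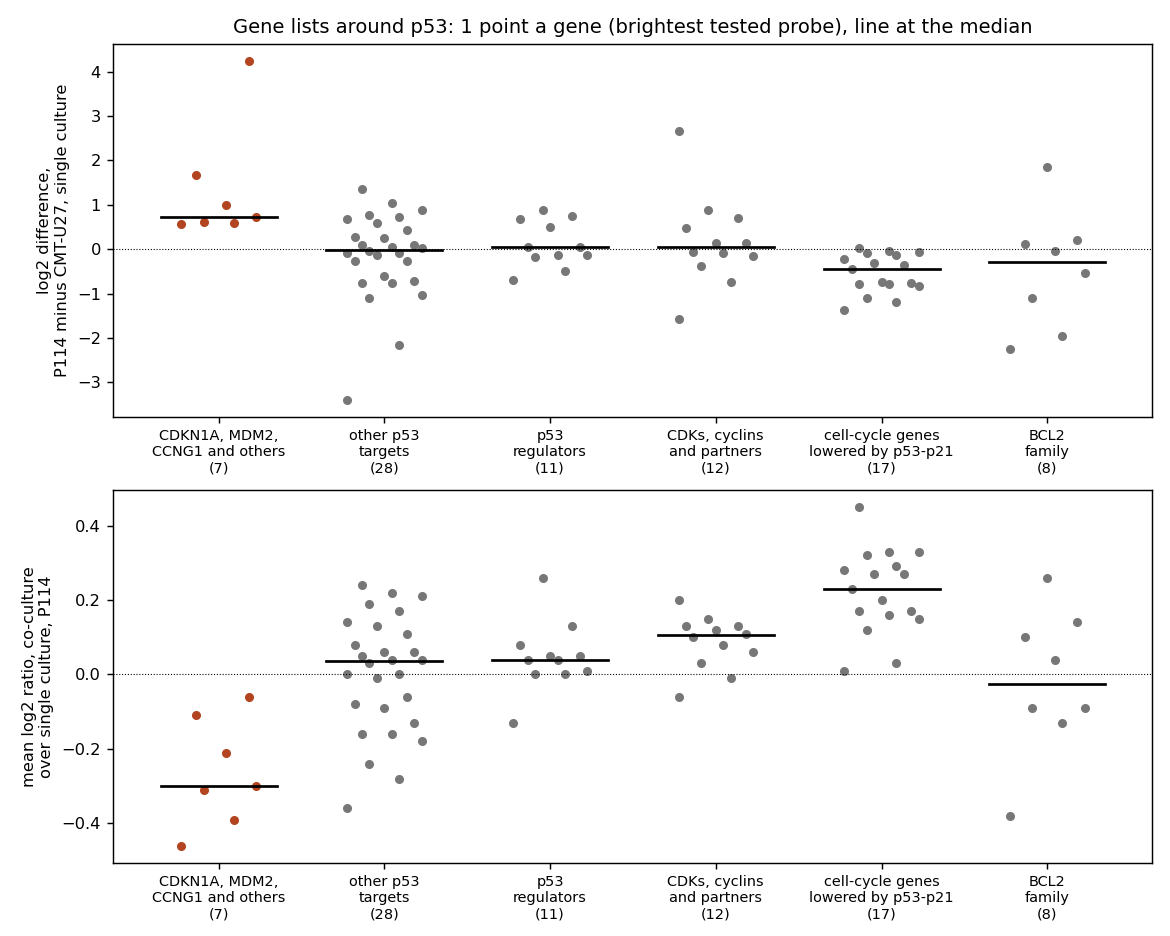
Each point is a gene at its brightest tested probe, grouped by list (x axis, number of genes in brackets), with a line at the median. The upper panel gives the log2 difference between P114 and CMT-U27 in single culture and the lower panel the mean log2 ratio of co-culture over single culture in P114. The medians of CDKN1A and the other 6 genes are 0.73 and -0.30, those of 28 other p53 targets -0.01 and 0.03, and those of 17 cell-cycle genes -0.45 and 0.23.

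Epithelial markers also differed between the lines, with all 11 tested lower in P114 single culture and a median of -2.31. Both P114 channels lay below both CMT-U27 channels at 10 of them, as at 4274 of all 10781 genes. EPCAM, used in the sort, was at -2.63 ± 0.17, while KRT5, whose channels overlapped, was at -0.17 ± 0.21. CD44, the other sort marker on the array, went the other way, at 1.45 ± 0.48, and its other probe gave 0.12. Of 5 fibroblast markers tested, COL1A2, a collagen gene, was at 2.84 ± 0.14 and the other 4 between 0.13 and 0.33. The part of this wider difference between the lines in the values of CDKN1A and the other p53 targets was not tested.

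The genes whose levels followed CDKN1A most closely over the 8 channels were NUPR1, TCP11L2, ALCAM, S100A4 and C18H7orf57, each with a Pearson correlation of 0.999 with A_11_P122016. The most opposed were LOC475409 and CDKN3 at -0.999 and MAT2A at -0.998. CDKN3, which encodes a phosphatase of cyclin-dependent kinases, was lower in P114 single culture (-2.49 ± 0.21), and S100A4, a calcium-binding protein gene, was 6.19 ± 0.49 higher. These correlations rest on channels that form 2 clusters, 1 for each line, and channels of a spot share an array. Of 5371 probes with a gene name, a signal in all channels and an SD of at least 0.3, 24.6% reached 0.95. Among the other p53 targets of this set the correlation with A_11_P122016 at the brightest probe was 0.986 for MDM2, 0.942 for CCNG1, 0.934 for SESN1, 0.912 for GADD45A, 0.906 for BAX and 0.863 for ZMAT3. The BAX probes differed in this, with 0.997 at the dimmer one, A_11_P053236.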

How the data were processed

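The deposited scanner files of 4 arrays (design 021193 per the file headers, probes placed on CanFam3.1) hold linear intensity values per spot, written by Agilent Feature Extraction, version 10.10.1.1 per the file headers and 10.7.3.1 per the submitters' processing notes. The labels' protocols name a miRNA labelling kit. Per the file headers the deposited log10 ratio is Cy5 over Cy3, and the values the authors deposited for the whole series were the same log10 ratios (largest gap 0, dye swaps not turned), so they served as an alternative. The deposited 0 or 1 flags per spot marked outliers, saturation and spots well above background.

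Mean intensities were corrected with normexp (offset 50) and loess within arrays, with 1417 control spots at weight 0. Outlier spots were left out, and ratios were turned by the channel labels. A probe was kept if, in at least 1 combination of line and culture, both arrays had it well above background (28732 probes), and 28692 were tested. Ratios of all 4 arrays were fitted with limma 3.58.1 in R 4.3.3 (files read with version 1.17.8 of data.table), with a coefficient per line and a dye term, leaving 1 residual degree of freedom beside 2.76 prior ones. Levels were fitted by channel after Aquantile normalization, with a mean per line and culture and a dye term. P-values were adjusted by Benjamini-Hochberg over all tested probes. With 2 arrays a line, the number of arrays limits the precision. A gene was shown by its brightest tested probe, and probes were named by the scanner files. Figures used Python 3.11.15, pandas 2.3.3 and matplotlib 3.10.9.

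The genes and lists were chosen with earlier results of these data known. Named were all probes of the 7 measured genes and, by largest value with a common direction, up to 4 other p53 targets and up to 2 genes of each other list per direction, of which a selection is printed, always TP73, MDM4 and PCNA. A further gene of that rule is not reported here. TP63 and MKI67 had no tested value. For likeness the 5 highest and 3 lowest correlations were named. EPCAM, CD44, KRT5 and COL1A2 were taken from the marker lists after their values were seen. Alternatives covered background correction, normalization, filters, the dye term and each array left out in turn. Fits with an array left out had no dye term, and the channel fits among them kept the intraspot correlation of all arrays. The scripts' fits were tested on simulated data.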

Additional observations from a re-analysis of the deposited data

Results flagged for a closer look

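At 4 of the 15 probes the ratio of co-culture over single culture was below 0 on both P114 arrays and above 0 on both CMT-U27 arrays, where 5.76% of all tested probes had that pattern. The difference, CMT-U27 minus P114 on the log2 scale, was 0.80 at A_11_P150703 and 0.57 at A_11_P122016 of CDKN1A. For CCNG1 it was 0.41 at A_11_P104806 and 0.46 at A_11_P0000024313. The genes were chosen on these contrasts, so the difference was not tested for them alone. The fit over all 28692 probes called 0 for this difference (821 at an unadjusted p under 0.05). The brightest CCNG1 probe, A_11_P116866, lacked the pattern, with CMT-U27 ratios of 0.30 and -0.37. The P114 direction also depended on the normalization. After median centring the mean P114 ratio was 0.07 at A_11_P122016, 0.08 at A_11_P104806 and 0.01 at A_11_P0000024313. It stayed below 0 at A_11_P150703 (-0.13), and the median of all tested probes was 0.16.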

How the results depend on the processing

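The precision is limited by 2 arrays a line, and line cannot be told apart from scan time. Without background correction limma called 12 probes in CMT-U27, all higher, and 1 for the difference between responses, against 0 of each with normexp. With median centring in place of loess it called 5 probes in P114, 17343 in CMT-U27 (17025 higher) and 12448 for the difference (12339 higher), where the medians of all tested probes were 0.16, 0.68 and 0.51. A filter on all channels gave 1 call in CMT-U27. For P114 over CMT-U27 the 4348 calls in single culture and 4389 in co-culture became 2119 (1211 higher) and 2112 (1235 higher) from processed signals at the 75th percentile, 9380 and 9488 with no dye term, and 10335 and 10507 with only the channels of that culture. Leaving out each array in turn gave 0 to 64 calls in P114 (64 without P114 replicate 2), 0 to 17 in CMT-U27 (17 without CMT-U27 replicate 1), 0 to 61 for the difference, 261 to 4490 for the lines in single culture and 253 to 4313 in co-culture. For the lines the fits without a CMT-U27 array gave 253 to 278 calls and those without a P114 array 2903 to 4490. The fits with an array left out also had no dye term, so the effects of the array and of the dye term cannot be told apart in their counts. The cause of these changes was not tested. The other alternatives stayed within 1.5 times of the main count. Taking the median over all probes of a gene in place of its brightest gave 0.16 for SESN1 and 3.88 for CDKN1A in single culture. Each array set both cultures of a line side by side, so the co-culture ratios are paired within arrays. No further pairing between arrays was possible because the labels give no replicate numbers. The numbers used follow the order of the records.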

Other observations

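Probes that carry a transcript cluster name in place of a gene symbol were outside the rule, and 2 of them, chosen after their values were seen, are described in the files as GADD45A and as cyclin G1. TC62446 (chr6:77393544-77393603), described as GADD45A, was 0.30 ± 0.14 higher in P114 than in CMT-U27 in single culture. TC62684 (chr4:47806505-47806564), described as cyclin G1, was 0.92 ± 0.13 higher, and its mean co-culture ratio in P114 was -0.16. TP53I11, a p53-induced gene, had the lowest mean co-culture ratio of the p53 target list in CMT-U27, -2.41 ± 3.34 (SD, n = 2), which rested on replicate 2 (-4.77) and not on replicate 1 (-0.05). Its single-culture difference between the lines, -3.39 ± 3.05 (SE), had an error nearly as large as itself, and its other probe gave -0.79.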
